A study of Rattus norvegicus with 2 samples.

Results

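Cxcl1, Cxcl2 and Cxcl3, which encode chemokines that attract neutrophils, and Cxcr2, which encodes their receptor, were followed through the cell types of the rat lung after a gas explosion. They were chosen by name, and each of the 4 genes matched 1 of the 42172 genes listed in the deposited count files. The groups were lung cells of rats exposed to a gas explosion and lung cells of control rats, and the design asked how the lung's cells vary after the blast. Each group was 1 library of dissociated whole lung, made with droplet-based 3′ single-cell RNA sequencing. Rats of both groups were kept specific-pathogen-free, and strain, age, sex, blast dose, the time from blast to sampling and the number of rats in a library are not given in the sources used here.

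Chemokines are small secreted proteins that guide white blood cells along a gradient. Those with a Glu-Leu-Arg (ELR) motif before the first cysteine pair, among them the products of Cxcl1, Cxcl2 and Cxcl3, act on the G-protein-coupled receptor Cxcr2 of neutrophils and draw them out of the blood. In rodents, tissue macrophages, monocytes, epithelial cells and stromal cells make them on sensing interleukin 1, tumour necrosis factor or microbial products, largely through the transcription factor NF-kB, and their mRNAs are short-lived.

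Depth differed strongly between the groups, as counted in unique molecular identifiers (UMIs, each a counted mRNA molecule). The 12642 explosion barcodes carried 9017416 UMIs (median per barcode 538.5), and the 21117 control barcodes carried 139486248 UMIs (median per barcode 4917). After filters and removal of called doublets, 11845 explosion and 19231 control cells were kept; 85 barcode sequences occurred in both libraries. The cells formed 32 clusters, made without the 4 genes, of which 28 were named from marker genes as 15 classes ("macrophage-like" and so on). Of the clusters, 20 drew over 80% of their cells from 1 library, so library and cell state cannot be told apart there. Levels are given as CPM, the UMIs of a gene per 1000000 UMIs summed over a class in a library. The 3′ chemistry counts 1 end of each transcript, so CPM was not divided by length. Parentheses hold 95% intervals, which cover counting error only: with 1 library per group there is no replicate check and no test. UMIs of Scgb1a1, the secreted club cell protein, were present in 99.8% of explosion and 100% of control T-like cells, which do not make it. Free RNA of that kind reaches all cells, so the T-like value is given beside the shares of cells. A ratio past 2-fold was common here among genes tested, those with at least 30 UMIs over both libraries of a class, and the share of genes with such a ratio is given beside the first such result of each class. The median gene itself was higher in the explosion library, by log2 0.66 in macrophage-like, 0.45 in monocyte-like, 1.66 in secretory-like and 1.25 in type 2 alveolar-like cells, and values relative to that shift are given below. Over the genes tested the median was log2 0.67, 0.44, 1.43 and 0.24 in the same order, so it depends on the genes taken. The gap was widest in type 2 alveolar-like cells. Medians given beside gene lists and for single clusters are those over the genes tested.

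The promoters of Cxcl1 and Cxcl2 are shown because the data below find UMIs of both genes in the same macrophage-like cells. Cxcl2 and Cxcl1 are next to each other on chromosome 14, with Cxcl3, Pf4, Ppbp and Cxcl6 close by in the RefSeq gene table of assembly GRCr8, and Cxcr2 is next to Cxcr1 on chromosome 9. The stretches are the 250 bases before the gene start in RefSeq (GRCr8; 5′ to 3′ on the gene's strand), at chr14:17479322-17479571 on the minus strand for Cxcl1 and chr14:17467256-17467505 on the minus strand for Cxcl2. Capitals mark matches on either strand to GGG, any 2 bases, then TTTCC, a form of the NF-kB motif that was chosen with these promoters in view.
Cxcl1: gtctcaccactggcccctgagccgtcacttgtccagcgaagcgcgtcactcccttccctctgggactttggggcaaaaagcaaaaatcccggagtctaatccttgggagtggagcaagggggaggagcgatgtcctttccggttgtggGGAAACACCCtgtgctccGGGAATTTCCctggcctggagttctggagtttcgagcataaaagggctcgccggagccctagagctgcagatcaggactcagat
Cxcl2: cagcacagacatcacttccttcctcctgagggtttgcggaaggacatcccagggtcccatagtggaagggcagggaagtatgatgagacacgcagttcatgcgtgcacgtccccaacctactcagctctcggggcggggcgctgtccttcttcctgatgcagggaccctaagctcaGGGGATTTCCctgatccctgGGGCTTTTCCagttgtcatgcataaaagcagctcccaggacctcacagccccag
Each stretch held 2 matches that do not overlap. In Cxcl1 they lie 102 to 93 and 84 to 75 bases before the start, the first of them on the other strand, and in Cxcl2 they lie 74 to 65 and 54 to 45 bases before it. Of 33469 rat promoters in the same table, 435 (1.3%) held a match in the 250 bases before the start. The same stretch of Cxcr2 held no match on either strand. A match is a run of letters and was not tested as a binding site.

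Cxcl1 was higher in the explosion library in macrophages and monocytes. Macrophage-like cells held 422 Cxcl1 UMIs in 1963 explosion cells and 2218 in 8823 control cells, which is 194 CPM (176–213) in the explosion library and 40.3 CPM (38.6–42.0) in the control library. The ratio was 4.81-fold (4.32–5.34), in a class where 34.8% of the 13368 genes tested were at least 2-fold higher in the explosion library. Relative to the median gene of the class, Cxcl1 was still higher, by 1.61 on the log2 scale.

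**Figure D1:**
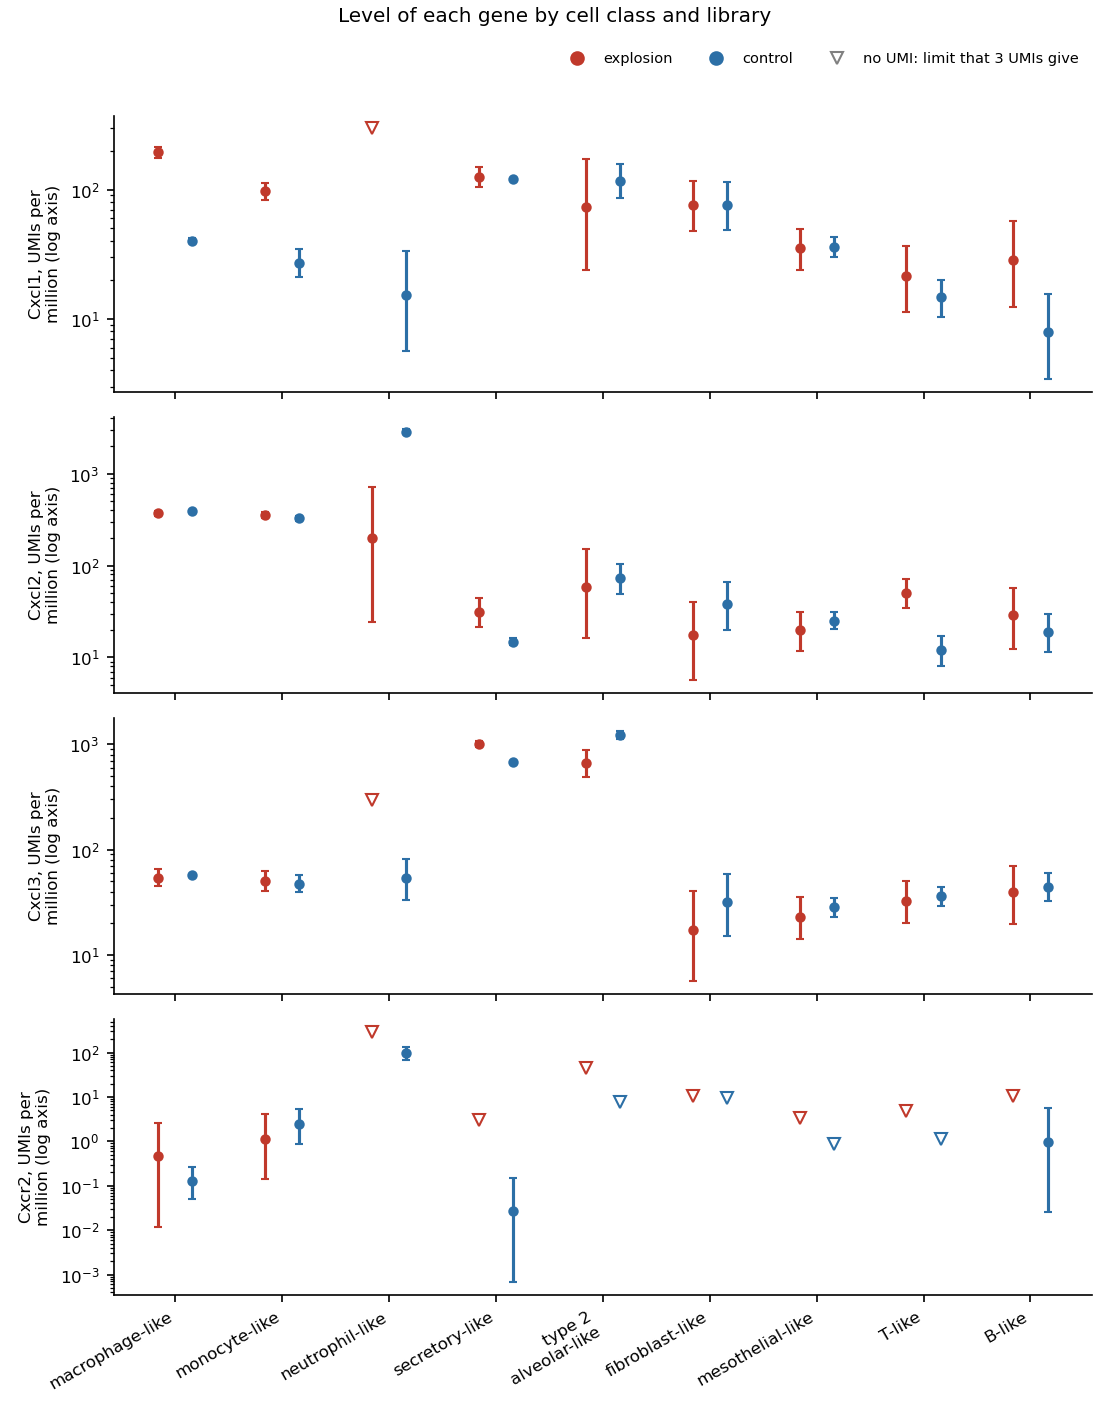
Levels of Cxcl1, Cxcl2, Cxcl3 and Cxcr2 (rows; CPM on log axes) in 9 cell classes, with the explosion library in red left of the control library in blue. Points are CPM, bars are 95% counting intervals and open triangles mark the limit that 3 UMIs give where no UMI was found; Cxcl1 in macrophage-like cells stood at 194 CPM in the explosion library and 40.3 CPM in the control library.

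The difference in Cxcl1 was also present with cells at equal depth. With every cell thinned to 500 UMIs, 5.58% (4.55–6.76) of 1756 explosion and 1.63% (1.38–1.92) of 8823 control macrophage-like cells had a Cxcl1 UMI. Before thinning the shares were 9.73% in the explosion library, at a median of 1116 UMIs, and 7.65% in the control library, at a median of 5800 UMIs. T-like cells, which served as the measure of free RNA, stood at 0.794% in the explosion and 0.375% in the control library after thinning, at median depths of 418 and 1829 UMIs. Both macrophage shares therefore lay above the T-like shares.

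The macrophage-like class was made of different clusters in the 2 libraries. Cluster 4, led by Mrc1, Gpnmb and Lpl, held 1612 of the explosion cells and 159 control cells. Cluster 0, led by Mrc1, Prodh2 and Il18, held 96 explosion and 5371 control cells, and cluster 2, led by Fabp4, Naaa and Cela1, held 50 explosion and 2398 control cells. No UMI of Marco, a scavenger receptor of alveolar macrophages, was found in the class in either library, whereas Mrc1, the mannose receptor, was found in 83.6% of explosion and 97.8% of control cells. As CPM, Cxcl1 was higher in the explosion library within each cluster that had 20 or more cells in both. The ratio was 7.59-fold (4.12–12.8) in cluster 0, 6.82-fold (3.09–13.1) in cluster 2 and 6.89-fold (2.65–25.5) in cluster 4. The last rests on 4 control UMIs. Cluster 0 had 14 explosion UMIs in 5 cells, 7 of them in 1 cell, and cluster 2 had 9 in 5 cells. Thinned to 500 UMIs, 2 of 91 explosion and 43 of 5371 control cells of cluster 0 had a Cxcl1 UMI. It was 1 of 50 explosion and 19 of 2398 control cells in cluster 2, and 52 of 1511 and 1 of 159 in cluster 4. The intervals of the explosion and control percentages at that depth overlapped in each of these clusters. In clusters 0, 2 and 4, 30%, 31.5% and 28.8% of the genes tested were at least 2-fold higher, and 28.8%, 31.7% and 7.32% at least 2-fold lower. Cluster 0 had 110632 explosion and 30092584 control UMIs in all, and cluster 2 had 73059 and 18775381. Ratios of genes near the limit of 30 UMIs therefore carry large counting error in clusters 0 and 2, and so do these shares.

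The highest Cxcl1 level of any cluster was in cluster 23, which was led by C1qa, C1qb, C1qc and Cd163. C1q genes encode the starter of the classical complement pathway and Cd163 a haemoglobin scavenger receptor, and both mark interstitial macrophages of the lung. Cluster 23 had 1734 CPM of Cxcl1 (1480–2019) in 176 explosion cells, against 679 CPM (601–765) in 124 control cells, a ratio of 2.55-fold (2.09–3.11). In it 23.6% of the genes tested were at least 2-fold higher. At 500 UMIs per cell, 42.9% (31.6–54.6) of 77 explosion and 18.5% (12.1–26.5) of 124 control cells had a Cxcl1 UMI; 99 shallower explosion cells were left out. The 176 explosion cells of cluster 23 held 166 of the 422 Cxcl1 UMIs of the class in that library. Without cluster 23 the ratio of the class was 3.45-fold (3.02–3.93).

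Cluster 15, the macrophage-like cluster with the highest Tnf level, came next. It had 1084 CPM of Cxcl1 (767–1488) in 26 explosion cells and 275 CPM (259–292) in 535 control cells, a ratio of 3.94-fold (2.77–5.44). It held 13.5% of all control Cxcl1 UMIs. Without cluster 15 the class stood further apart, at log2 2.98 in place of 2.26. Clusters 15 and 23 were singled out after their values were seen.

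Monocyte-like cells also had more Cxcl1 in the explosion library. They had 96.8 CPM (82.7–113) in 3852 explosion cells and 27.3 CPM (21.2–34.6) in 1284 control cells, a ratio of 3.55-fold (2.67–4.78), where 25.5% of the 9232 genes tested were at least 2-fold higher. At 500 UMIs per cell the shares were 4.41% (3.25–5.84) of 1043 explosion and 0.701% (0.321–1.33) of 1284 control cells, with 2809 shallower explosion cells left out. In cluster 8, led by Fcnb and Vcan, genes of classical monocytes, the level was 167 CPM in explosion and 36.7 CPM in control cells, 4.55-fold apart (3.12–6.77). In clusters 1 and 11, which carry Treml4, a marker of nonclassical monocytes, it was 53.2 CPM in explosion and 20.6 CPM in control cells, 2.59-fold apart (1.64–4.17). At least 2-fold higher were 29.6% of the genes tested in cluster 8 and 22.9% in clusters 1 and 11. Cluster 8 made up 706 of the 1043 explosion cells at 500 UMIs but 305 of the 1284 control cells. A change in composition therefore enters the shares of the whole class at that depth. Within cluster 8 those shares were 5.52% (3.96–7.47) of explosion and 0.656% (0.0795–2.35) of control cells. Clusters 1 and 11 were nearly split by library, since cluster 1 held 2902 explosion and 45 control cells and cluster 11 held 5 explosion and 934 control cells.

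In the epithelial and stromal classes as wholes Cxcl1 did not differ beyond counting error. Secretory-like cells had 125 CPM (104–149) in 714 explosion cells and 120 CPM (117–124) in 2953 control cells, a ratio of 1.04-fold (0.864–1.25). Relative to the median gene of that class, which was 1.66 log2 units higher, the Cxcl1 ratio was log2 -1.60. Fibroblast-like cells had 76.4 CPM (22 UMIs) in the explosion library and 76.2 CPM (24 UMIs) in the control library, and their log2 ratio moved between -0.26 relative to the median gene and 1.79 after thinning, which left 9 explosion UMIs and 1 control UMI. Mesothelial-like cells, of the lung surface, had 35.05 CPM (24.0–49.5) in the explosion library and 35.9 CPM (29.9–42.8) in the control library. In type 2 alveolar-like cells, which make surfactant, there were 5 and 45 UMIs, or 73.8 CPM (24.0–172) in the explosion and 117 CPM (85.3–157) in the control library.

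Some clusters outside the macrophage-like and monocyte-like classes had other Cxcl1 ratios. Secretory-like cluster 5 had 122 CPM in the explosion and 83.4 CPM in the control library, a ratio of 1.46-fold (1.19–1.78), which is below the median ratio of log2 1.58 over the genes tested in that cluster. Cluster 18, unnamed and led by cilium genes such as Dnah12 and Hydin, had 19 UMIs or 64.2 CPM in the explosion and 4 UMIs or 13.5 CPM in the control library, a ratio of 4.74-fold (1.58–19.2), where 10.4% of the genes tested were at least 2-fold higher. Cluster 21 was left unnamed because cell division genes such as Top2a and Mki67 led it, but its best marker match was macrophage, with 5 markers detected. It had 202 CPM in the explosion and 29.4 CPM in the control library, a ratio of 6.87-fold (4.55–10.3), where 24.8% of the genes tested were at least 2-fold higher. Some lymphoid classes also had ratios above 1, on few UMIs. B-like cells had 8 UMIs in each library, a ratio of 3.62-fold (1.18–11.1). ILC2-like cells had 7 in the explosion and 1 in the control library, 14.3-fold (1.84–645). Intervals of T-like cells, at 1.45-fold (0.711–2.79), and NK-like cells, at 1.85-fold (0.367–8.60), included 1. Over all kept cells Cxcl1 was at 105 CPM in the explosion and 65.4 CPM in the control library, a ratio that turned to log2 -0.39 relative to the median gene.

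**Figure D2:**
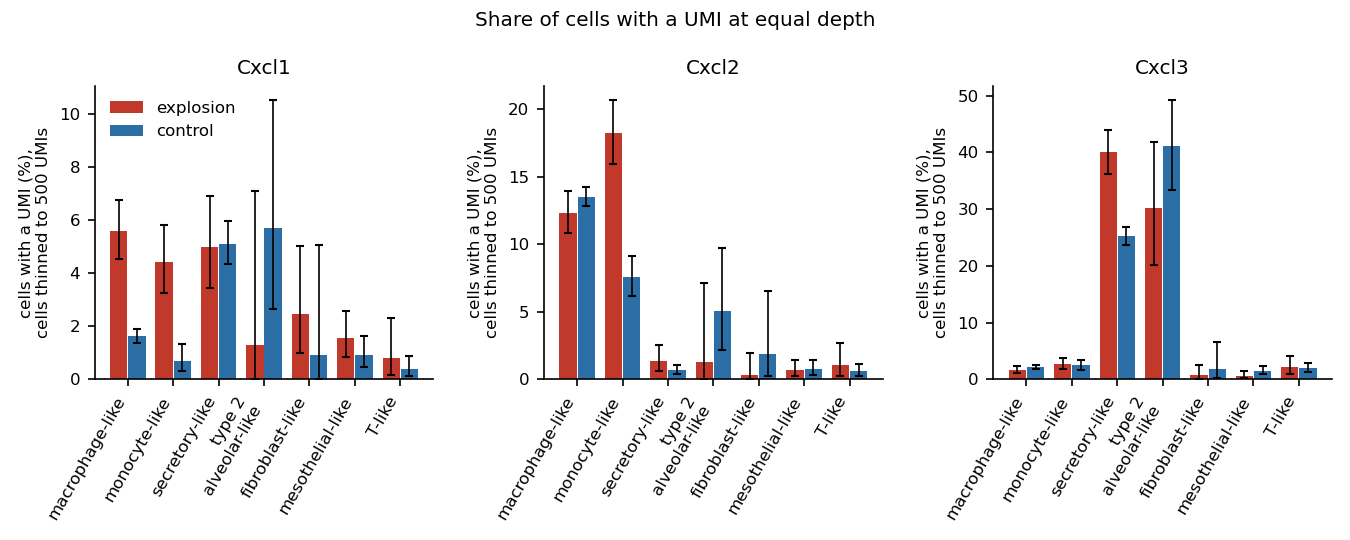
Share of cells with a UMI of Cxcl1, Cxcl2 and Cxcl3 in 7 cell classes after every cell was thinned to 500 UMIs, with the explosion library in red left of the control library in blue. Bars are percent of cells and error bars exact 95% binomial intervals; macrophage-like cells with Cxcl1 were 5.58% in the explosion and 1.63% in the control library, and secretory-like cells with Cxcl3 were 40.0% in the explosion and 25.2% in the control library, a direction that reverses relative to the median gene (log2 -1.08).

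The order of the classes changed accordingly. In the explosion library macrophage-like cells had the highest Cxcl1 level, and its interval did not overlap that of secretory-like cells, the next class. Secretory-like, monocyte-like, fibroblast-like and type 2 alveolar-like cells followed, each overlapping its neighbour. In the control library secretory-like and type 2 alveolar-like cells came first and overlapped, and macrophage-like cells stood below these and fibroblast-like cells, with no overlap. Macrophage-like cells held 48.2% of all Cxcl1 UMIs in the explosion library and 28.4% in the control library. Monocyte-like cells held 19.2% in the explosion and 0.871% in the control library, and secretory-like cells 14.2% in the explosion and 58.1% in the control library. These shares follow the number of cells of each class captured as well as the level per cell.

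Cxcl2, the rodent chemokine also called macrophage inflammatory protein 2, belonged to the same myeloid cells, but its level did not move with that of Cxcl1. Macrophage-like cells had 806 Cxcl2 UMIs or 370 CPM (345–396) in the explosion library, and 21350 UMIs or 388 CPM (383–393) in the control library. The ratio was 0.954 (0.888–1.02). After thinning, 12.4% (10.9–14.0) of explosion and 13.5% (12.8–14.3) of control cells had a UMI, against 1.06% of explosion and 0.599% of control T-like cells. Relative to the median gene of the class the Cxcl2 ratio was log2 -0.73.

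The clusters of the class did not share 1 direction for Cxcl2. Cluster 0 had 380 CPM (274–513) in the explosion and 262 CPM (257–268) in the control library. Cluster 4 had 288 CPM (264–314) in the explosion and 373 CPM (303–455) in the control library. Cluster 15 had 1056 CPM (743–1455) in the explosion and 1855 CPM (1812–1899) in the control library, a ratio of 0.569 (0.4–0.785). In cluster 23 the levels were 1703 CPM (1451–1985) in the explosion and 2091 CPM (1951–2237) in the control library, a ratio of 0.814 (0.684–0.964), and the thinned shares were 40.3% in both libraries. Cluster 23 thus had 2.55-fold more Cxcl1 in the explosion library without more Cxcl2. Without cluster 15 the Cxcl2 ratio of the class was log2 0.37.

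**Figure D3:**
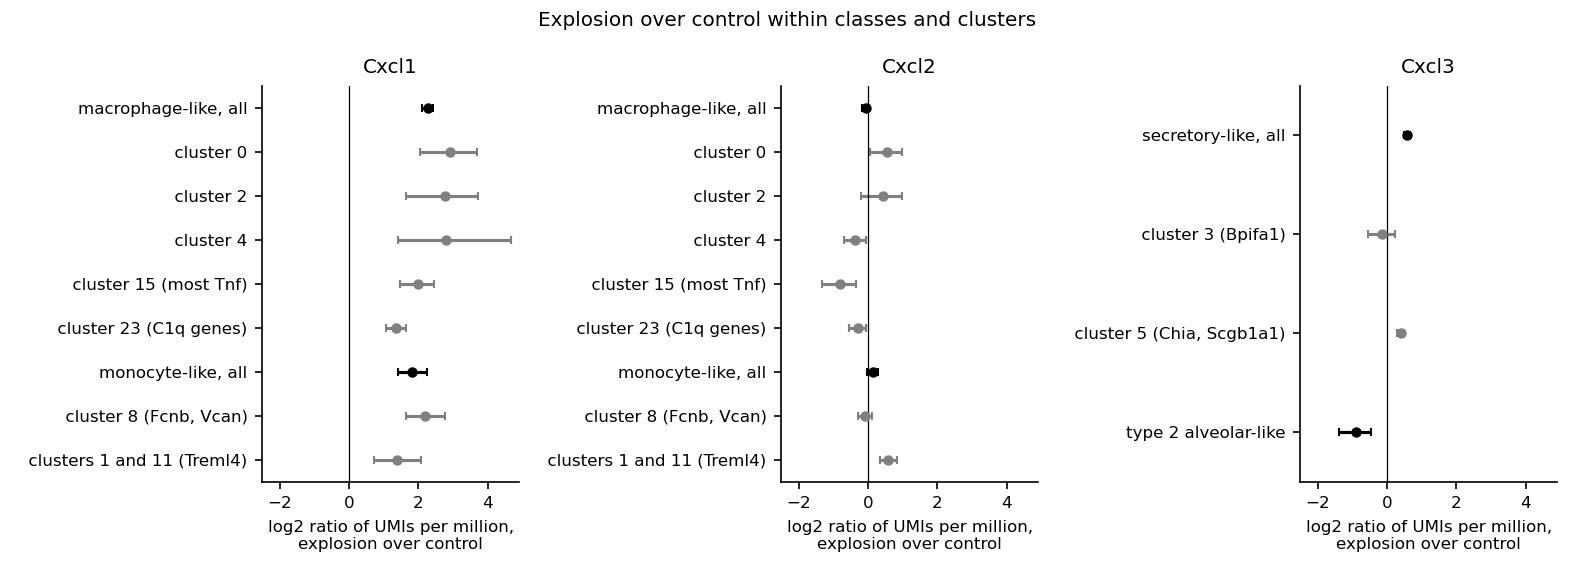
Log2 ratio of CPM, explosion over control, for Cxcl1 and Cxcl2 in macrophage-like and monocyte-like cells and their clusters, and for Cxcl3 in epithelial cells, with whole classes in black, clusters in grey and bars for 95% counting intervals. Cxcl1 lay right of 0 in every cluster shown while Cxcl2 lay on both sides; the positive Cxcl3 ratio of secretory-like cells (log2 0.58) turned to log2 -1.08 relative to the median gene.

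In monocyte-like cells Cxcl2 was at 357 CPM (329–386) in the explosion library and 326 CPM (304–349) in the control library, a ratio of 1.09 (0.985–1.22). The direction turned in some settings, as with the per-cell marker gate (log2 -0.45) and relative to the median gene (log2 -0.32). At 500 UMIs per cell, 18.2% (15.9–20.7) of the 1043 explosion cells deep enough and 7.55% (6.17–9.14) of control cells had a Cxcl2 UMI, whereas before thinning it was 10.8% of explosion and 15.6% of control cells. Cluster 8 made up 706 of those explosion cells and 305 of the 1284 control cells, so a change in composition enters the thinned shares. Cluster 8 had 503 CPM in the explosion and 534 CPM in the control library, with overlapping intervals. Clusters 1 and 11 together had 266 CPM (236–299) in the explosion and 178 CPM (157–201) in the control library, a ratio of 1.49-fold (1.26–1.77). In the explosion library monocyte-like cells held 38.5% of all Cxcl2 UMIs, against 3.22% in the control library, and macrophage-like cells held 50.1% in the explosion and 84.5% in the control library.

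The cells with the most Cxcl2 were control neutrophils. Cluster 22 was led by S100a9 and S100a8, calcium-binding proteins packed in neutrophils. It held 20 explosion and 304 control cells. Its explosion cells had 2 Cxcl2 UMIs, or 198 CPM (24.0–715), and its control cells 1118 UMIs, or 2867 CPM (2701–3040); 63.5% (57.8–68.9) of the control cells had a UMI. The ratio was 0.0691 (0.00836–0.25). S100a9 was also lower there, at 7426 CPM in the explosion and 47188 CPM in the control library, and was found in 90.0% of explosion and 99.0% of control cells. Ltf, a protein of neutrophil granules, had no UMI in cluster 22 in either library. With 20 explosion cells the cluster was too small for a share of genes past 2-fold. The part of cell purity in the Cxcl2 difference was not tested.

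Secretory-like cells had little Cxcl2, with 31 UMIs or 31.3 CPM (21.2–44.4) in the explosion and 561 UMIs or 14.9 CPM (13.6–16.1) in the control library. The ratio of 2.10-fold (1.42–3.02) stood in a class where 61.1% of the 12208 genes tested were at least 2-fold higher, and it turned below 1 when called doublets were kept and relative to the median gene. After thinning 1.36% of explosion and 0.677% of control cells had a UMI, close to the T-like shares.

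Cxcl3, the third ligand, was highest in secretory-like and type 2 alveolar-like cells in both libraries. Secretory-like cells, the airway lining that makes secretoglobins, had 1003 Cxcl3 UMIs or 1012 CPM (950–1076) in the explosion library and 25546 UMIs or 676 CPM (668–685) in the control library. Type 2 alveolar-like cells had 45 UMIs or 664 CPM (484–889) in the explosion library and 475 UMIs or 1235 CPM (1127–1351) in the control library. No other named class passed 61.0 CPM in either library. Control ciliated-like cells, at 43.2 CPM, and type 1 alveolar-like cells, at 41.8 CPM, stood near control B-like cells, at 44.7 CPM. Secretory-like cells held 66.4% of all Cxcl3 UMIs in the explosion and 74.1% in the control library.

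The direction of Cxcl3 in secretory-like cells depended on the scale. As CPM Cxcl3 was 1.50-fold (1.40–1.59) higher in the explosion library, but relative to the median gene it was lower (log2 -1.08), and after thinning 40.0% (36.3–43.9) of 662 explosion and 25.2% (23.7–26.8) of 2953 control cells had a UMI. Scgb1a1 alone made up 401186 CPM in explosion and 605638 CPM in control secretory-like cells. With Scgb1a1 and other abundant genes left out of the total, the Cxcl3 ratio was log2 -0.15. Within cluster 5, led by Chia and Scgb1a1 and home to 640 explosion and 1040 control cells, Cxcl3 was at 1062 CPM in the explosion and 809 CPM in the control library, a ratio of 1.31-fold (1.23–1.40) that lies below the cluster's median ratio of log2 1.58. Within cluster 3, led by Bpifa1 and Scgb3a1 and home to 74 explosion and 1913 control cells, it was at 558 CPM (420–726) in the explosion and 616 CPM (606–625) in the control library, which did not differ beyond counting error.

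In type 2 alveolar-like cells Cxcl3 was lower in the explosion library, at a ratio of 0.538 (0.387–0.731), and relative to the median gene of the class at log2 -2.15. That median was log2 1.25, against 0.24 over the genes tested in the class. The size of the relative value therefore rests on the genes taken for the median. The thinned shares were 30.3% (20.2–41.9) of 76 explosion cells and 41.1% (33.4–49.2) of 158 control cells, with overlapping intervals. Sftpc, the surfactant protein that defines these cells, was at 75375 CPM in the explosion and 159887 CPM in the control library. The cilium gene cluster 18 had 493 CPM of Cxcl3 (416–580) in 278 explosion cells and 203 CPM (155–261) in 160 control cells, a ratio of 2.43-fold (1.79–3.34).

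Low Cxcl3 levels in some of the other classes went together with Scgb1a1. Secretory-like cells had 25.2 Cxcl3 UMIs per 10000 Scgb1a1 UMIs in the explosion library and 11.2 in the control library. T-like cells had 25.1 in the explosion and 11.5 in the control library, B-like cells 21.3 in the explosion and 10.6 in the control library, and NK-like cells 21.3 in the explosion and 9.30 in the control library. These 3 lymphoid classes thus had nearly the ratio of the secretory-like cells of their own library. Not every class did: ILC2-like cells had 4 Cxcl3 UMIs, or 37.95 per 10000 Scgb1a1 UMIs, in the explosion library and no Cxcl3 UMI in the control library, blood endothelial-like cells had 33.4 in the explosion and 6.49 in the control library, and control ciliated-like cells had 5.58. Macrophage-like cells stood above the secretory-like ratio, with 112 in the explosion and 34.96 in the control library, and so did type 2 alveolar-like cells, with 230 in the explosion and 114 in the control library. Monocyte-like cells stood above it mainly in the explosion library, with 58.9 there and 14.1 in the control library. Explosion dendritic-like cells had 40.6, on 9 Cxcl3 UMIs. The share of macrophage-like cells with a Cxcl3 UMI after thinning, 1.71% in the explosion and 2.19% in the control library, was near that of T-like cells, 2.12% in the explosion and 1.95% in the control library. A few macrophage-like cells held far more: 70 of the 8823 control cells had 10 or more Cxcl3 UMIs, and control cluster 15 stood at 182 CPM. Macrophage-like Cxcl3 levels were 54.2 CPM (44.8–64.9) in the explosion and 57.1 CPM (55.1–59.1) in the control library. Monocyte-like cells had 50.7 CPM in the explosion and 47.7 CPM in the control library. The monocyte-like log2 ratio had no stable direction, from -0.36 relative to the median gene to 0.99 with the per-cell marker gate.

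**Figure D4:**
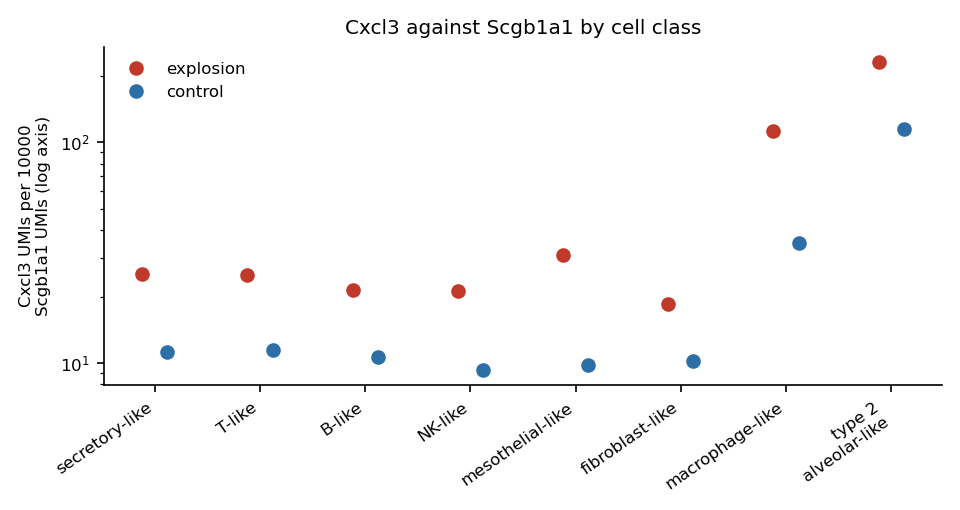
Cxcl3 UMIs per 10000 Scgb1a1 UMIs (log axis) in 8 cell classes, with the explosion library in red left of the control library in blue; points are ratios of summed UMIs, 1 per class and library. T-like, B-like and NK-like cells lie near the secretory-like value of their own library (25.2 in the explosion and 11.2 in the control library), and macrophage-like and type 2 alveolar-like cells lie above it.

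Cxcr2, the receptor, was sparse and sat in neutrophils. The explosion library held 3 Cxcr2 UMIs in all, 2 in monocyte-like and 1 in macrophage-like cells, and the control library held 55. Of the control UMIs, 38 (69.1%) were in the 304 neutrophil-like cells, at 97.4 CPM (68.9–134), with a UMI in 36 of them, or 11.8% (8.43–16.0). Control macrophage-like cells had 7 UMIs, monocyte-like cells 6, B-like and secretory-like cells 1 each, unnamed clusters 2, and T-like cells none among 1335 cells. The 20 explosion neutrophil-like cells had no Cxcr2 UMI. At their depth 3 UMIs would be 297 CPM, above the control level, so a difference in the receptor was not detectable there.

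Cxcr1, the neighbouring receptor gene, whose human product binds interleukin 8, had another distribution. Macrophage-like cells had 58.8 CPM of Cxcr1 in the explosion library and 58.4 CPM in the control library, with a UMI in 6.01% of explosion and 26.8% of control cells. Control neutrophil-like cells had 6 Cxcr1 UMIs, or 15.4 CPM, and explosion ones 1 UMI. T-like cells were at 4.92 CPM in the explosion and 3.47 CPM in the control library. Cluster 23 was below clusters 0, 2, 4 and 15, with 10.4 CPM of Cxcr1 in the explosion and 12.5 CPM in the control library. Those values rest on 1 explosion and 5 control UMIs. Cxcr1 UMIs were thus mostly in other macrophage-like clusters, and control Cxcr2 UMIs mostly in the neutrophil-like cluster.

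**Figure D5:**
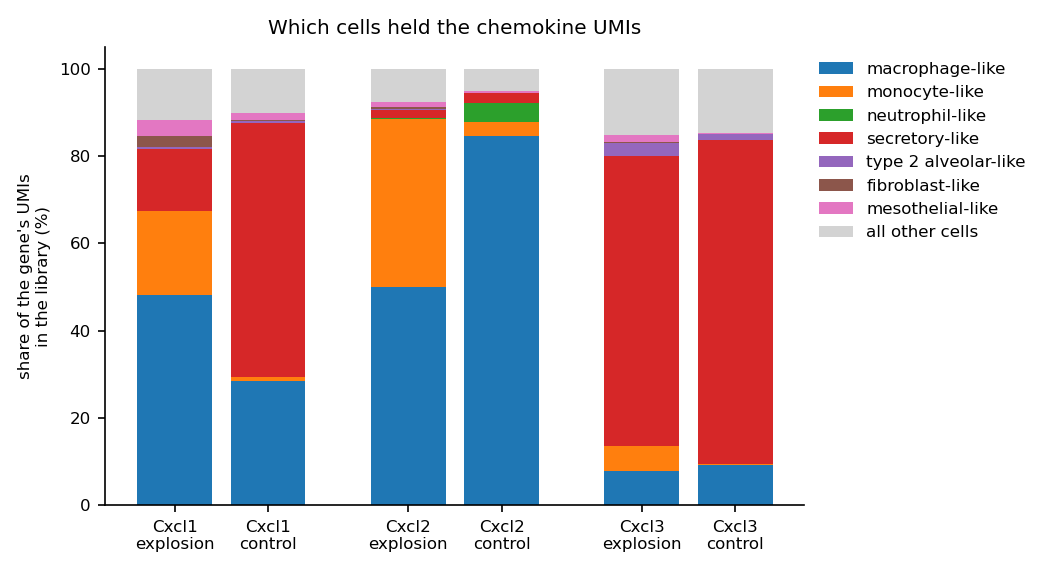
Share of each chemokine's UMIs (percent of the library's UMIs of that gene) held by 7 cell classes and by all other cells, with the explosion library left of the control library for each gene. Macrophage-like cells held 48.2% of Cxcl1 in the explosion and 28.4% in the control library, monocyte-like cells 38.5% of Cxcl2 in the explosion and 3.22% in the control library, and secretory-like cells most of Cxcl3 in both.

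Within macrophage-like cells, Cxcl2 was found more often in cells with Cxcl1 than in cells without it. At 500 UMIs per cell, 51.0% (40.7–61.3) of the 98 explosion cells with Cxcl1 also had Cxcl2, against 10.1% (8.67–11.6) of the 1658 cells without Cxcl1. In the control library the shares were 59.7% (51.2–67.8) of 144 cells with Cxcl1 and 12.8% (12.1–13.5) of 8679 without. In cluster 23, 69.7% of the 33 explosion cells with Cxcl1 and 18.2% of the 44 without had Cxcl2, and in the control library 82.6% of 23 with and 30.7% of 101 without. Cxcl3 was also found more often in macrophage-like cells with Cxcl1. At 500 UMIs the shares were 6.12% (2.28–12.9) of explosion cells with Cxcl1 and 1.45% (0.930–2.15) without. In the control library they were 7.64% (3.87–13.3) with and 2.10% (1.81–2.42) without. Secretory-like cells had no such tie between Cxcl1 and Cxcl3. Cxcl3 was found in 39.4% of explosion cells with Cxcl1 and 40.1% without, and in 29.1% of control cells with Cxcl1 and 25.02% without.

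A few cells held much of the message. In macrophage-like cells the 99 explosion cells with the most Cxcl1, 5% of the class, held 75.8% of its UMIs, and the 442 control cells with the most, the same 5%, held 89.5%. For Cxcl2 the top 5% held 45.0% in the explosion and 47.5% in the control library. For Cxcl3 in secretory-like cells the top 5% held 21.3% in the explosion and 20.0% in the control library. These figures move with depth, which differed between the libraries, and with how many cells hold a UMI at all, which differed between the genes. A Cxcl1 UMI was found in 191 of 1963 explosion and 675 of 8823 control macrophage-like cells. A Cxcl3 UMI was found in 457 of 714 explosion and 2589 of 2953 control secretory-like cells.

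Cytokines and sensors that induce these chemokines were taken as a list. In explosion macrophage-like cells 9 of the 15 listed genes with enough UMIs were at least 2-fold higher and none lower. Of all genes tested in the class, 34.8% were at least 2-fold higher and 9.03% at least 2-fold lower. The listed genes had a median log2 ratio of 1.05, beside 0.67 for all genes of the class. Nod2, a sensor of bacterial cell walls, stood at 36.3 CPM in the explosion and 10.2 CPM in the control library, and Osm, the cytokine oncostatin M, at 85.8 CPM in the explosion and 24.9 CPM in the control library. Tnf did not move past counting error, with 42.2 CPM in the explosion and 37.8 CPM in the control library. In monocyte-like cells 5 of 14 were higher and none lower, with a median of 0.93 beside 0.44. Of all genes tested there, 25.5% were at least 2-fold higher and 9.77% at least 2-fold lower. Osm was 6.64-fold higher (5.25–8.48) in explosion monocyte-like cells. Il1b, which encodes interleukin 1 beta and was picked after its values were seen, was at 1868 CPM in explosion and 1095 CPM in control monocyte-like cells.

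Of NF-kB subunits, inhibitors and factors that degrade chemokine mRNA, 6 of 19 were at least 2-fold higher and none lower in explosion macrophage-like cells. Of all genes tested in the class, 34.8% were higher and 9.03% lower. The list had a median of log2 0.58 beside 0.67 for all genes, so it stood near all genes tested there. Nfkbiz, an NF-kB cofactor, had the highest ratio, 3.68-fold (3.24–4.18), and Tnfaip3, a brake on NF-kB also called A20, the next, 3.53-fold (3.23–3.86). Monocyte-like cells had 9 of 20 higher and none lower, where 25.5% of all genes tested were higher and 9.77% lower. The median of the list was log2 0.98 beside 0.44. It was led by Tnfaip3, at 851 CPM in the explosion and 135 CPM in the control library. Nfkbiz came next, at 965 CPM in the explosion and 242 CPM in the control library. In cluster 23, 7 of 10 were higher and none lower, at a median of 1.31 beside 0.22. Of all genes tested in that cluster, 23.6% were at least 2-fold higher and 21% at least 2-fold lower. The larger macrophage-like clusters had list medians near those of all genes tested. In cluster 4, 2 of 17 were higher and none lower, at 0.48 beside 0.40. In cluster 0, 5 of 19 were higher and 3 lower, at 0.74 beside 0.80. In cluster 2, 6 of 19 were higher and 2 lower, at 0.71 beside 0.87. Of all genes tested in clusters 4, 0 and 2, 28.8%, 30% and 31.5% were higher and 7.32%, 28.8% and 31.7% lower. Of a list of immediate early and dissociation genes, added after the data were seen, 1 of 11 was higher and 1 lower in macrophage-like cells. Egr1 was 2.52-fold higher (1.95–3.20), Fos had a ratio of 0.602 (0.573–0.633) and Atf3 one of 0.412 (0.37–0.458). In monocyte-like cells 2 of 11 of that list were higher and none lower, at a median of log2 0.30 beside 0.44. Their part in the Cxcl1 result was not tested.

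The other ELR chemokines were nearly absent. Cxcl6 had 3 UMIs in explosion and 44 in control secretory-like cells, and Ppbp, the chemokine of platelets, had none in myeloid or epithelial cells of either library. Csf3, which encodes the neutrophil growth factor G-CSF, had 1 UMI in explosion and 10 in control secretory-like cells and none in macrophage-like or monocyte-like cells. Of other neutrophil attractants and adhesion genes, 6 of 12 in macrophage-like cells were at least 2-fold higher and none lower. In that class 34.8% of all genes tested were higher and 9.03% lower. Among the listed genes Itgam, an integrin of monocytes and neutrophils, was at 20.2 CPM in the explosion and 1.94 CPM in the control library. Alox5ap, a helper of leukotriene synthesis, had a ratio of 0.562 (0.526–0.601). In monocyte-like cells 3 of 12 were higher and 2 lower, at a median of log2 0.46 beside 0.44, so the list stood near all genes tested there. Of genes that carry the signal of Cxcr2, 6 of 16 were higher and none lower in macrophage-like cells, at a median of log2 0.71 beside 0.67, with Arrb1, a beta-arrestin that uncouples such receptors, 4.08-fold higher (3.76–4.42). In monocyte-like cells 3 of 17 were higher and 1 lower, at a median of log2 0.52 beside 0.44, where 25.5% of all genes tested were higher and 9.77% lower.

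Across 26 units (classes of at least 50 cells, by library) and 14694 genes, the genes whose log2(CPM + 10) ran most like each chemokine differed between the 3 ligands. For Cxcl1 they were Dapk1 (Pearson r 0.70), Por (0.68), Slc31a1 (0.68), Oat (0.67) and Anpep (0.64). For Cxcl2 they were LOC120099372 (0.90), Il36b (0.90), LOC108350108 (0.89), Nlrp3 (0.89) and Il1rn (0.89), and for Cxcl3 Sftpd (0.93), Sftpb (0.91), Foxq1 (0.91), Rap1gap (0.91) and Tmem54 (0.91). Units of 1 library share its depth and its free RNA, so these are descriptions. Cxcr2, with 58 UMIs in all, was below the 100 UMIs set for this comparison.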

How the data were processed

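Single-cell RNA was measured in 1 explosion and 1 control library of dissociated rat lung, made with droplet 3′ chemistry version 3. The deposited files hold the authors' raw UMI counts for each gene in each barcode, as whole numbers. Cell Ranger 6.1.1 and bcl2fastq 2.20 are named per the submitters' processing notes, whereas cellranger 7.1.0 stands in the data per the file headers. The notes name the builds mRatBN7.2 and rn6 without saying which was used for these counts.

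Barcodes were kept from 200 detected genes upward and up to 25% mitochondrial UMIs, and doublets called with Scrublet in scanpy 1.11.5 were removed (597 explosion and 1853 control barcodes). Counts were clustered without the 4 genes (2000 variable genes, 30 components, 15 neighbours, Leiden resolution 1), with igraph 0.11.9, numpy 2.4.6 and scipy 1.17.1. A cluster was named from at least 3 detected markers of 213 marker entries, 206 of them found. UMIs were summed per class and library and expressed as CPM. Intervals at the 95% level are exact Poisson for CPM, exact conditional for ratios and Clopper-Pearson for shares. A limit for 0 UMIs is 3 counts. Shares at equal depth came from cells thinned to 500 UMIs, leaving out shallower cells. A gene was tested against the 2-fold limit where it had at least 30 UMIs over both libraries of the class. The ratio and interval code was tested on simulated data.

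The members and gene lists were chosen with earlier results of these data known. From each list, genes with the 2 highest and 2 lowest ratios among those with at least 30 UMIs in 1 library could be named. Il1b, Csf3, Cxcl6, Ppbp and Cxcr1 were named after their values were seen. Of 86 list genes 85 were found. Promoters came from RefSeq (GRCr8), which had an entry for 3 of the 4 members. Depth per library is given with the results, and the alternatives tried are given at the end.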

Additional observations from a re-analysis of the deposited data

Results flagged for a closer look

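Cxcl3 moved in opposite directions in the epithelial classes. Its log2 CPM ratio, explosion over control, was 0.58 in secretory-like cells and -0.90 in type 2 alveolar-like cells, and the secretory-like value turned to -1.08 relative to the median gene of that class. The difference between the classes was not tested, since each group is 1 library.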

How the results depend on the processing

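No paired analysis was possible because each group is 1 library and no result comes from a test. All values here are log2 CPM ratios, explosion over control, and the cause of each move was not tested. Cxcl1 stayed above 0 in macrophage-like cells in 11 of 11 settings and in monocyte-like cells in 11 of 11. In macrophage-like cells Cxcl1 (2.26) was 1.98 with at least 500 UMIs per cell, 1.61 relative to the median gene, 1.79 without the C1q-led cluster and 2.98 without the Tnf-rich cluster. Cxcl2 (-0.07) was -0.21, -0.73, -0.28 and 0.37 in the same order, and -0.24 thinned to 500 UMIs. Cxcl3 (-0.08) was -0.73 relative to the median gene and -0.44 thinned. In monocyte-like cells Cxcl1 (1.83) was 2.28 with at least 500 UMIs, 1.29 with a per-cell marker gate, 1.38 relative to the median gene, 2.99 thinned and 1.37 in clusters not led by Fcnb. Cxcl2 (0.13) was 0.62, -0.45, -0.32, 1.11 and 0.58 in the same order, -0.045 without Scgb1a1 and other abundant genes, and -0.087 in the Fcnb-led cluster alone. The Fcnb-led cluster made up 706 of the 1043 thinned monocyte-like cells in the explosion library and 305 of 1284 in the control library. In secretory-like cells Cxcl1 (0.06) was -0.30 with the gate, -0.67 without abundant genes, -1.60 relative to the median gene and 0.35 thinned. Cxcl3 (0.58) was 0.42, -0.15, -1.08 and 0.83 in the same order, and Cxcl2 (1.07) was -0.45 with called doublets kept, -0.35 with the gate and -0.58 relative to the median gene. In all epithelial cells Cxcl2 reversed to -0.36 with doublets kept and -0.43 relative to the median gene, and Cxcl3 to -0.050 without abundant genes and -0.90 relative to the median gene. Over all cells Cxcl1 reversed to -0.39 relative to the median gene and Cxcl3 to 0.18 thinned. Leaving out or isolating clusters was chosen after seeing the data. The shallow explosion library, with a median of 532 UMIs per kept cell against 4677 in the control library, limits Cxcr2 and all neutrophil-like values.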
